A study of Mus musculus with 19 samples.

Results

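The comparison set 3 WT cerebellum libraries, from a hindbrain region that holds granule cells and Purkinje cells, against 3 WT striatum libraries. The striatum is a forebrain region whose neurons are mainly medium spiny neurons. These 6 libraries were chosen by their labels for region and genotype out of the 19 libraries of a study of spinocerebellar ataxia type 17 (SCA17), and all genes counted in them were considered. The mice of both groups were untreated 3-month-old C57BL/6 wild-type (WT) mice, and the labels name no transgene, allele or agent in them. Libraries of 2 other kinds were used beside them, those of SCA17 knock-in mice of the same age and strain, which express TBP with an expanded polyglutamine tract from the germline, from the cerebellum (n = 4) and the striatum (n = 3), and those of the prefrontal cortex (3 per genotype), which entered the fit. The labels number the libraries within each region, but they do not say which libraries of the 2 regions came from 1 mouse. RNA was taken from pieces of whole tissue, so more cells of a type and more RNA per cell cannot be told apart in any value below.

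Granule cells are the small glutamatergic neurons that fill the inner layer of the cerebellar cortex, and Purkinje cells are the large GABA neurons that form its output. Medium spiny neurons are the GABA projection neurons of the striatum. They receive dopamine from the midbrain and carry its signal through G proteins, adenylyl cyclase and the phosphoprotein DARPP-32, and they fall into a D1-receptor class that makes substance P and dynorphin and a D2-receptor class that makes enkephalin. The study itself asked why mutant TBP harms the cerebellum and Purkinje cells most, and the comparison shows how the cerebellum and the striatum differ without it.

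Library totals ran from 11975768 to 15162265 counts in the WT cerebellum and from 13453498 to 15493036 in the WT striatum. Levels are given as CPM, the library's share of counts on a common scale, after scaling by the trimmed mean of M values (TMM). Fold changes are on the log2 scale, cerebellum minus striatum, with the standard error (SE) of the fit. A gene was called where its p from edgeR's quasi-likelihood test, adjusted by the Benjamini-Hochberg method, was under 0.05. Sets of 3 values are given for libraries 1 to 3 of a region in that order, and a gene is said to be higher in a region only where it was called. Of 41128 genes in the deposited table, 16841 had enough counts to be tested.

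Cerebellum library 1 and striatum libraries 1 and 3 stood apart from their groups. Cerebellum library 1 had high levels of genes of choroid plexus, the tissue that secretes cerebrospinal fluid. The transthyretin gene Ttr stood at 1818, 12.3 and 4.12 CPM in cerebellum libraries 1 to 3, and Ttr was at 6309, 8275 and 1434 CPM in striatum libraries 1 to 3. Striatum library 3 had the lowest choroid plexus level of its group and the highest level of cortical neuron genes, with Tbr1, a transcription factor of deep-layer cortical neurons, at 5.81, 0.669 and 22.6 CPM and the vesicular glutamate transporter Slc17a7 at 23.3, 8.40 and 171 CPM in striatum libraries 1 to 3. Striatum library 1 had the lowest levels of activity-induced genes, with Fos at 6.34, 60.0 and 95.03 CPM. By Xist and the Y-linked genes, cerebellum libraries 1 and 2 and striatum libraries 2 and 3 came from females and the other 2 from males, so each region had 2 female mice and 1 male. The libraries numbered 1 and the libraries numbered 3 were therefore not from the same mice, and no pairing by number was used.

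In the WT mice, 9512 of 16841 tested genes (56.5%) were called, 4682 (27.8%) higher in the cerebellum and 4830 (28.7%) higher in the striatum. Large differences were less balanced, although the even split of calls depended on TMM scaling (57.3% higher in the cerebellum with library totals). At least 4-fold differences numbered 815 genes in favour of the cerebellum (4.84%) and 1536 in favour of the striatum (9.12%), so the striatum took 65.3% of them. At 16-fold and above there were 237 and 467 genes. Over all tested genes the log2 fold change had a median of -0.00, and 7849 genes lay within 0.5 of 0. For 10767 genes (63.9%) the 3 libraries of one region all lay above the 3 of the other, among them 9169 of the 9512 called genes. Genes at least 4-fold higher in the cerebellum held 6.91% of the cerebellar CPM and 0.817% of the striatal CPM, and genes at least 4-fold higher in the striatum held 10.8% of the striatal CPM and 1.12% of the cerebellar CPM. The genes with 0 counts in all 3 libraries of the other region numbered 40 and 108. The median gene span was 21.5 kb for the cerebellar set, 23.6 kb for the striatal set and 22.3 kb for all tested genes, and the median GC content of the longest transcript was 51.1%, 50.5% and 49.7%. Protein-coding genes made up 81.5%, 85.0% and 88.4%, and none of these differences was tested.

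**Figure D1:**
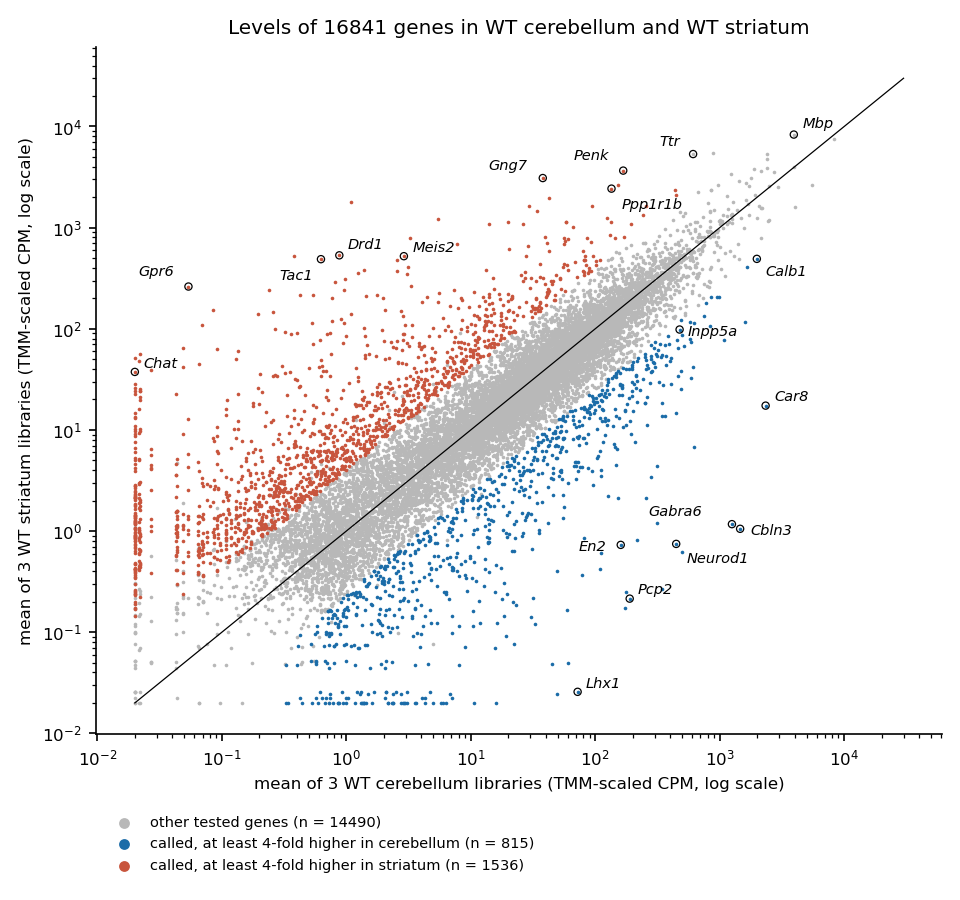
Mean level of each of 16841 tested genes in 3 WT cerebellum libraries (x axis, TMM-scaled CPM, log scale) and 3 WT striatum libraries (y axis, same unit and scale), with means of 0 drawn as the lowest row and the leftmost column of points and the line of equal levels in black. Genes called and at least 4-fold higher in the cerebellum are blue (815), those at least 4-fold higher in the striatum are red (1536), and the labelled genes are described in the text.

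The genes with the largest fold in favour of the cerebellum were transcription factors of hindbrain neurons and products of granule and Purkinje cells. Lhx1, a homeobox gene of Purkinje cells, was at 66.6, 67.6 and 82.3 CPM in the cerebellum and at 0, 0 and 0.0773 CPM in the striatum, where it rested on 1 count in all, and the ratio of the regions was 2986 (95% counting interval 536 to 117935). Barhl2, a homeobox factor of glutamatergic hindbrain neurons, was at 11.8, 18.6 and 17.6 CPM against 0 in every striatum library, at least 221-fold higher in the cerebellum. Uncx, a homeobox factor, was at 39.5, 51.8 and 56.8 CPM against 1 count in the whole striatum group. Among genes of higher level, Gabra6, the alpha6 subunit that marks granule cell GABA-A receptors, was at 1264, 1198 and 1298 CPM in the cerebellum and at 0.668, 2.30 and 0.541 CPM in the striatum (log2 fold change 10.06 ± 0.30 SE, adjusted p = 2.9e-13). Cbln3, a secreted synapse organizer that granule cells make, was at 1248, 1526 and 1603 CPM in the cerebellum against 0.534, 2.01 and 0.618 CPM in the striatum. Fat2, a giant cadherin of granule cells, was at 130.3, 208 and 182 CPM in the cerebellum against 0.0668, 0.223 and 0.232 CPM in the striatum. For Purkinje cells, Ppp1r17, a protein phosphatase inhibitor, was at 314, 352 and 370.3 CPM in the cerebellum against 0.334, 0.0743 and 0.386 CPM in the striatum. Pcp2, a modulator of Gi and Go proteins, was at 169, 219.6 and 179 CPM in the cerebellum against 0.267, 0.223 and 0.155 CPM in the striatum. Dao, the D-amino acid oxidase of cerebellar astrocytes and Bergmann glia, was at 63.3, 57.8 and 59.7 CPM against 2 counts in the striatum group. Smpx, a small protein known from muscle, was at 10.2, 9.24 and 12.2 CPM against 0 in the striatum, at least 146-fold higher in the cerebellum. These 10 genes were picked among genes whose regions do not overlap.

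On the striatal side the leading genes were homeobox genes of ventral forebrain neurons, an orphan receptor and the enzyme of acetylcholine synthesis. Dlx6os1, a noncoding RNA read from the strand opposite Dlx6, was at 51.0, 61.1 and 42.6 CPM in the striatum against 0 in every cerebellum library, at least 742-fold higher, although the libraries do not mark strand, so reads of Dlx6os1 and Dlx6 cannot be told apart where the genes overlap. Gpr6, an orphan receptor of D2-class medium spiny neurons, was at 257, 289 and 239 CPM against 2 counts in the cerebellum group, a ratio of 5649.5 (95% counting interval 1564 to 46650.0). Chat, choline acetyltransferase, was at 33.7, 48.2 and 30.5 CPM against 0, at least 539-fold higher. The homeobox genes Isl1 and Dlx5 had 0 counts in all cerebellum libraries and were at least 406-fold and 328-fold higher in the striatum. Nr2e1, an orphan nuclear receptor of forebrain stem cells and astrocytes, was at 28.3, 18.5 and 25.4 CPM against 0. Crabp1, which binds retinoic acid in the cytosol, was at 15.2, 15.1 and 13.7 CPM against 0. Ano2, a calcium-gated chloride channel, was at 52.1, 57.2 and 60.7 CPM against 1 count in the cerebellum group.

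**Figure D2:**
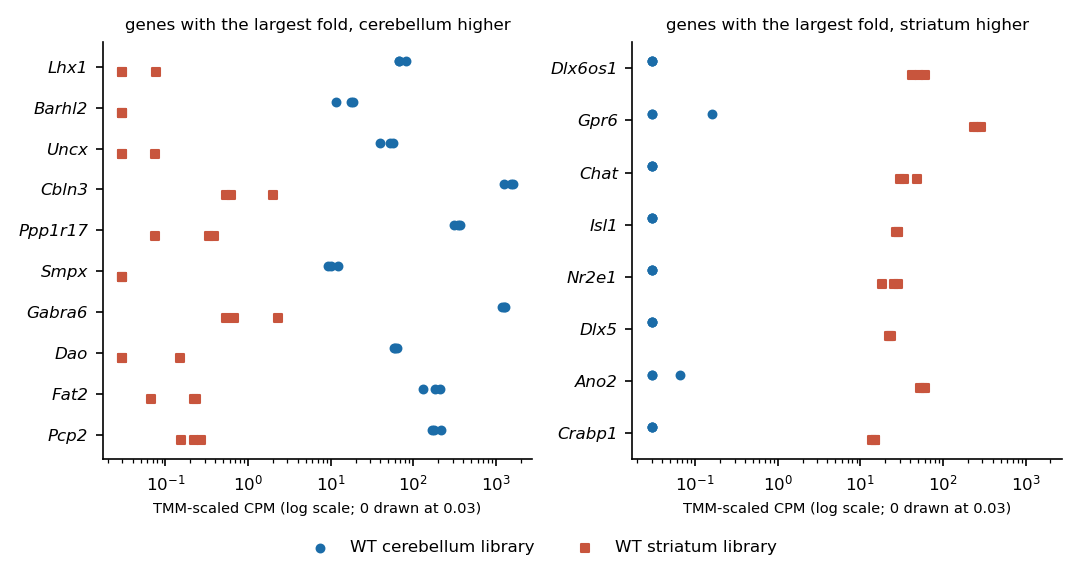
Level of each of the 6 libraries (x axis, TMM-scaled CPM, log scale, 0 drawn at the left edge) for genes among the 10 with the largest fitted fold in each direction and at least 10 CPM in the higher region; blue circles are the 3 WT cerebellum libraries and red squares the 3 WT striatum libraries. The genes were picked among those whose regions do not overlap, and Dlx6os1, Chat, Isl1, Nr2e1, Dlx5 and Crabp1 had 0 counts in every cerebellum library.

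The ranking by difference in CPM instead of fold mixed genes that were abundant in both regions with genes that were low in one, and it again held Cbln3 and Gabra6. Among genes higher in the cerebellum Snap25, a SNARE protein of transmitter release, had the largest difference, at 5814, 5240.1 and 5472 CPM in the cerebellum and 2444, 2597 and 2923 CPM in the striatum, a 2.08-fold difference. Aldoc, the glycolytic enzyme also known as zebrin II that marks stripes of Purkinje cells, was at 4324, 3996 and 3865 CPM in the cerebellum against 1619.7, 1645 and 1557 CPM in the striatum. Car8, a carbonic anhydrase-related protein of Purkinje cells that binds the IP3 receptor, was at 2188, 2563 and 2262 CPM in the cerebellum against 14.0, 16.3 and 21.9 CPM in the striatum and was 135-fold higher in the cerebellum. Nrep, a neuronal regeneration-related protein, was at 1647, 1561 and 1615 CPM in the cerebellum against 109, 127 and 118 CPM in the striatum. Itm2b and Tubb4a, a membrane protein and a tubulin, differed 2.10-fold and 2.11-fold. Among genes higher in the striatum the largest difference was that of Mbp, myelin basic protein, at 9629, 8926 and 6411 CPM against 4419.6, 3458 and 3939 CPM in the cerebellum (adjusted p = 0.021), a call lost without cerebellum library 2 or 3 or striatum library 1, with adjusted p between 0.0525 and 0.0695. Penk, the enkephalin precursor, was at 4156, 3566 and 3268 CPM in the striatum against 181, 172 and 149.8 CPM in the cerebellum. Gng7, the G protein gamma subunit that pairs with the olfactory alpha subunit in medium spiny neurons, was at 3034, 3499 and 2744 CPM in the striatum against 38.2, 36.8 and 38.7 CPM in the cerebellum. Rasd2, the small G protein Rhes, was at 1889, 2268 and 1714 CPM in the striatum against 56.0, 35.4 and 36.3 CPM in the cerebellum. Arf3, a GTPase of the Golgi, was 5.34-fold higher in the striatum, Ndrg4 2.26-fold and Cpe, the carboxypeptidase that trims neuropeptides, 2.71-fold. The mitochondrial gene mt-Cytb was 2.01-fold higher in the striatum, at 4799.8, 5131 and 4534 CPM in the striatum against 2456, 2305 and 2429.6 CPM in the cerebellum.

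The stretch of 250 bases before the transcription start is shown for 5 chosen genes, because the study looked at TBP and the GC-box factor Sp1 on the Inpp5a promoter. Gabra6, Cbln3 and Gng7 came from the rankings above. Inpp5a, the gene the study follows, and Tac1, a medium spiny neuron gene, were in neither ranking. Capitals mark GGGCGG on either strand (CCGCCC when read on the strand shown), each sequence runs 5′ to 3′ toward the gene, and all come from RefSeq on GRCm38.p6.
Gabra6, chr11:42321073-42321322, minus strand: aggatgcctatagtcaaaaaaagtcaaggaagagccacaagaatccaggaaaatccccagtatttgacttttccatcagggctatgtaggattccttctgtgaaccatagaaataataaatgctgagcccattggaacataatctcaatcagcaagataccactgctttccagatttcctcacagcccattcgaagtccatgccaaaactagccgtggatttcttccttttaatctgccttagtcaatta
Cbln3, chr14:55884257-55884506, minus strand: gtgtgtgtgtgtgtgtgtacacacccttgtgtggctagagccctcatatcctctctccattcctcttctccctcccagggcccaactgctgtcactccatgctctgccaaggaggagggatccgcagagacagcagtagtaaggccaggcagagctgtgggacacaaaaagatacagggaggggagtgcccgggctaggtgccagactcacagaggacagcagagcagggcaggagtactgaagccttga
Inpp5a, chr7:139388859-139389108, plus strand: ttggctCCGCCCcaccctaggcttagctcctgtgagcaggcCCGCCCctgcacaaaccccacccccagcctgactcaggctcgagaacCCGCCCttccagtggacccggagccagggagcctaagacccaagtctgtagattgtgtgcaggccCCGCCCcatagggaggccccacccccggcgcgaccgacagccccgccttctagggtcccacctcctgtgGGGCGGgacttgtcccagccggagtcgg
Gng7, chr10:81014926-81015175, minus strand: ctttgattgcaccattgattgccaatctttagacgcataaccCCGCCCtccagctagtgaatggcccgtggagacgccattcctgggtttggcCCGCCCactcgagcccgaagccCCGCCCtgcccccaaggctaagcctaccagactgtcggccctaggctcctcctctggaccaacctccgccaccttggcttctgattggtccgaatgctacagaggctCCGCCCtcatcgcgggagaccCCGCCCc
Tac1, chr6:7554811-7555060, plus strand: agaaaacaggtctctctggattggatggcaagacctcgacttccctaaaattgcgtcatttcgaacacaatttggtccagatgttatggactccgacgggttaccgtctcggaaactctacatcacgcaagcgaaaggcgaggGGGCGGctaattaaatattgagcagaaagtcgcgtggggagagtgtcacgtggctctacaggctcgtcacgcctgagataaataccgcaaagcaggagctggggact
The windows of the granule cell genes Gabra6 and Cbln3 held 0 matches and 2 CpG each. The windows of Inpp5a and Gng7 held 5 matches each, with 14 and 15 CpG, although Inpp5a was higher in the cerebellum and Gng7 in the striatum, and that of Tac1 held 1. Of 27025 such windows listed by RefSeq, 33.0% held the motif, and of the 12406 windows found for the 16841 tested genes, 56.5% did. The share was 47.4% for the 540 windows found among the 815 genes at least 4-fold higher in the cerebellum and 44.6% for the 1058 found among the 1536 of the striatum. Too many genes of each set lacked an entry for a valid check, so nothing is read from these shares. A match is only a match of letters and does not show that a factor binds there.

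The marker genes of the labelled tissues were present where the labels put them. The lists were chosen with earlier results of these data known, so they are no independent check of the labels. All 20 of 20 granule cell genes were higher in the cerebellum, beside 27.8% of all tested genes, with a median log2 fold change of 4.29. Counts of list members given below stand beside the same background, 27.8% of all tested genes called higher in the cerebellum and 28.7% higher in the striatum. For counts of members at least 4-fold higher, the background was 4.84% for the cerebellum and 9.12% for the striatum. Neurod1, a helix-loop-helix factor of granule cells, was at 392, 443 and 506 CPM in the cerebellum against 0.134, 1.41 and 0.695 CPM in the striatum. Cbln1, which joins granule cell axons to Purkinje cells, was at 233, 362 and 342 CPM in the cerebellum against 0.668, 1.04 and 1.93 CPM in the striatum. Calb2, calretinin of granule and unipolar brush cells, was at 366, 766 and 722 CPM in the cerebellum, lower in library 1 than in the others, and at 5.34, 6.54 and 8.50 CPM in the striatum. The smallest differences were those of Gabrd, the extrasynaptic delta subunit, at 365, 394 and 366 CPM in the cerebellum against 238, 252 and 246 CPM in the striatum, and of Reln, at 150.1, 156 and 147 CPM in the cerebellum against 66.4, 72.2 and 61.4 CPM in the striatum. Slc17a7, the vesicular glutamate transporter of granule cells, was 7.69-fold higher in the cerebellum, and its striatal level came largely from library 3.

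Of 23 genes known from Purkinje cells, 21 were higher in the cerebellum, with a median log2 fold change of 2.69, and 2 were higher in the striatum. Slc1a6, the glutamate transporter of Purkinje cell spines, was at 283, 343 and 315 CPM in the cerebellum against 3.74, 3.20 and 6.18 CPM in the striatum and Homer3, a scaffold protein of their synapses, at 137, 157 and 145 CPM in the cerebellum against 4.61, 4.68 and 4.33 CPM in the striatum. Calb1, calbindin, used in the study as the Purkinje cell label, was at 1983, 1904 and 2076 CPM in the cerebellum and still at 489, 462 and 522 CPM in the striatum, a 4.05-fold difference. Itpr1, the IP3 receptor that releases calcium from the endoplasmic reticulum, differed 2.09-fold, at 874, 840.2 and 823 CPM in the cerebellum against 418, 452 and 346 CPM in the striatum. The exceptions were Foxp2, a forkhead factor shared by Purkinje cells and medium spiny neurons, at 12.7, 15.5 and 13.3 CPM in the cerebellum and 112, 116 and 130.3 CPM in the striatum. Pcp4, a calmodulin-binding peptide, was at 168, 194 and 178 CPM in the cerebellum against 375, 398 and 276 CPM in the striatum. Both were higher in the striatum without overlap (adjusted p = 1.8e-06 and 0.0008). Among 11 genes of other cerebellar cells, 10 were higher in the cerebellum. Gdf10, a secreted factor of Bergmann glia, was at 225, 268 and 284 CPM in the cerebellum against 21.5, 22.6 and 19.9 CPM in the striatum. Slc6a5, the glycine transporter of Golgi and other inhibitory neurons, was at 9.25, 7.08 and 7.60 CPM against 2 counts in the striatum group. Eomes, a factor of unipolar brush cells, was at 39.6, 10.5 and 16.4 CPM, highest in library 1. Sorcs3, a sorting receptor, was at 31.3, 30.9 and 34.6 CPM in the cerebellum against 38.3, 27.8 and 45.5 CPM in the striatum with overlap (adjusted p = 0.59).

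Medium spiny neuron genes gave the reverse. Of 29 tested, 28 were higher in the striatum, 27 of them at least 4-fold, with a median log2 fold change of -4.90. Gpr52, a further member of the list, was not analysed here. Drd1, the D1 dopamine receptor, was at 474, 556.4 and 566 CPM in the striatum against 1.35, 0.721 and 0.566 CPM in the cerebellum (log2 fold change -9.20 ± 0.64 SE). Drd2, the D2 receptor, was at 232, 274 and 212 CPM in the striatum against 0.257, 1.64 and 0.971 CPM in the cerebellum. Adora2a, the adenosine receptor that shares its neurons, was at 412, 370.5 and 338 CPM in the striatum against 2.96, 2.36 and 2.35 CPM in the cerebellum. Rgs9, which ends Gi signals in these cells, was at 762, 849 and 766 CPM in the striatum against 4.88, 2.75 and 2.02 CPM in the cerebellum. Adcy5, their adenylyl cyclase, was at 1135, 1216 and 933 CPM in the striatum against 24.6, 24.8 and 28.7 CPM in the cerebellum. Ppp1r1b, which encodes DARPP-32, was at 2369, 2702 and 2220.1 CPM in the striatum against 161, 120.2 and 124 CPM in the cerebellum. The Ppp1r1b RNA level in the cerebellum was thus far from 0, and the fold change (18.0-fold) was smaller than that of the receptors. Gnal, the olfactory-type G protein alpha subunit, differed 5.47-fold, and Itpka, an IP3 kinase, 1.96-fold. Cnr1, the CB1 cannabinoid receptor, was the single member higher in the cerebellum, at 608, 562 and 716 CPM in the cerebellum against 360.2, 549 and 363 CPM in the striatum (adjusted p = 0.003).

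Most neuropeptide genes were higher in the striatum. Of 16 neuropeptide precursor genes, 11 were higher in the striatum, all at least 4-fold, 1 was higher in the cerebellum and 4 were not called. Tac1, the precursor of substance P, was at 461, 485 and 517 CPM in the striatum against 0.771, 0.459 and 0.647 CPM in the cerebellum. Pdyn, the precursor of dynorphin, was at 333, 220.1 and 314 CPM in the striatum against 0.321, 0.917 and 1.21 CPM in the cerebellum. Sst, somatostatin of striatal interneurons, was at 119, 112 and 186 CPM in the striatum against 2.06, 0.655 and 0.566 CPM in the cerebellum. Npy, neuropeptide Y of the same interneurons, was at 116, 101 and 114 CPM in the striatum against 17.7, 13.4 and 7.60 CPM in the cerebellum. Per length of exon, Penk was the most abundant precursor in both regions, at 2242 RPKM (CPM per kilobase of exon) in the striatum and 103 RPKM in the cerebellum. Cartpt was called although its striatal level, 1.80, 1.56 and 24.3 CPM, came mainly from library 3. Cck, cholecystokinin, was at 29.4, 56.5 and 36.9 CPM in the cerebellum against 12.4, 8.55 and 57.6 CPM in the striatum with overlap (adjusted p = 0.29). Striatum library 3 was the high one, and without it Cck was called higher in the cerebellum with a log2 fold change of 1.94 (adjusted p = 0.000725). Adcyap1, the precursor of PACAP, was the exception at 4.56, 10.4 and 10.0 CPM in the cerebellum and 0.334, 0.223 and 2.16 CPM in the striatum.

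The receptors for these peptides followed the same side, with 15 of 18 higher in the striatum, 2 higher in the cerebellum and 1 not called. Tacr1, the substance P receptor, was at 56.0, 70.1 and 52.9 CPM in the striatum against 0.193, 0.131 and 0.0809 CPM in the cerebellum. Oprk1 and Oprd1, the kappa and delta opioid receptors, were 53.9-fold and 28.7-fold higher in the striatum, and Oprm1, the mu receptor, was low in both regions at 1.74, 1.56 and 2.55 CPM in the striatum against 0.257, 0.262 and 0.0809 CPM in the cerebellum. Cerebellar exceptions were Crhr1, the receptor of corticotropin-releasing hormone, at 89.6, 61.7 and 71.0 CPM in the cerebellum against 9.15, 5.20 and 12.0 CPM in the striatum. Sstr3, a somatostatin receptor of primary cilia, was at 12.0, 12.8 and 10.8 CPM in the cerebellum against 1.34, 0.446 and 3.48 CPM in the striatum. Crh itself, the ligand of Crhr1, was at 6.14, 0.372 and 2.63 CPM in the striatum and rested on 1 count in the cerebellum group.

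Receptors for dopamine, serotonin, acetylcholine and adenosine were mostly higher in the striatum, with 20 of 23 higher in the striatum, 2 higher in the cerebellum and 1 not called. Chrm1, the M1 muscarinic receptor, was at 213 ± 11.9 CPM (SD, n = 3) in the striatum against 0.537 ± 0.444 CPM (SD, n = 3), and Chrm4, the M4 receptor of D1-class neurons, at 26.7, 23.3 and 27.2 CPM in the striatum against 0, 0.262 and 0.324 CPM in the cerebellum. Htr2a and Htr1d, serotonin receptors, were 28.1-fold and 45.2-fold higher. Adora1, the inhibitory adenosine receptor, was higher in the cerebellum at 343, 324 and 318 CPM in the cerebellum against 157, 146 and 166 CPM in the striatum, the reverse of Adora2a. Drd4 was the other cerebellar call, at 0.643, 0.721 and 1.46 CPM in the cerebellum against 0.200, 0.149 and 0.541 CPM in the striatum, and it was lost without cerebellum library 3, striatum library 1 or striatum library 2 (adjusted p between 0.101 and 0.135). Among genes of transmitter handling, Gad1, the main GABA-synthesizing enzyme, was at 967, 768 and 819.7 CPM in the cerebellum and 804, 893 and 1036 CPM in the striatum with overlap, and Gad2, its synaptic form, was 2.86-fold higher in the striatum. Slc18a3 and Slc5a7, the vesicular acetylcholine and the choline transporter, were at 21.8, 20.8 and 17.3 and 43.7, 47.2 and 36.9 CPM in the striatum, and the cerebellum group held 1 count of Slc18a3 and at most 0.459 CPM of Slc5a7. Th, tyrosine hydroxylase, overlapped at 26.8, 8.32 and 4.61 CPM in the cerebellum against 14.0, 12.5 and 20.3 CPM in the striatum, and the dopamine transporter Slc6a3, a marker of midbrain cell bodies, had too few counts to be tested.

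Transcription factors of the hindbrain and of the forebrain were mostly found on opposite sides of the contrast. Among 25 tested factors of the hindbrain and cerebellum, 23 were higher in the cerebellum (median log2 fold change 5.21, or 5.08 with genes at 0 in the striatum set to their bound), 1 was higher in the striatum and 1 was not called. En2, an engrailed gene that patterns the midbrain and cerebellum, was at 164, 155 and 162 CPM in the cerebellum against 0.601, 0.818 and 0.773 CPM in the striatum. Zic2, a zinc finger gene of granule cells, had a log2 fold change of 5.09 ± 0.25 SE, and its paralog Zic1 was at 86.8, 93.8 and 109 CPM in the cerebellum against 2.40, 1.71 and 4.48 CPM in the striatum. Pax6, a paired-box factor of granule cells, was at 108, 125 and 116 CPM in the cerebellum against 9.48, 6.02 and 7.42 CPM in the striatum. Rora, a nuclear receptor of Purkinje cells, was at 483, 512 and 512 CPM in the cerebellum against 87.5, 92.9 and 77.6 CPM in the striatum. Tfap2b, a factor of cerebellar interneurons, was at 31.4, 30.9 and 29.4 CPM in the cerebellum against 0.200, 0.149 and 0.0773 CPM in the striatum. Gbx2, which sets the midbrain-hindbrain border in the embryo, went the other way at 1.135, 0.446 and 0.232 CPM in the striatum against 0.0643, 0 and 0.162 CPM, a ratio of 8.70 (95% counting interval 2.98 to 42.2), and was not called without cerebellum library 2 or striatum library 1 (adjusted p = 0.0604 and 0.103). En1 was called mainly on 1 library, with 6.04, 0.459 and 0 CPM in cerebellum libraries 1 to 3 and 0 in the striatum, and the call was lost without that library (adjusted p = 0.176) or without any striatum library (adjusted p between 0.0526 and 0.0588). Atoh1, Ptf1a and Olig3, which specify cerebellar neurons in the embryo, had too few counts to be tested.

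Of 31 forebrain and striatal factors, 26 were higher in the striatum, all at least 4-fold, 2 were higher in the cerebellum and 3 were not called; the median log2 fold change was -7.50, or -6.25 with genes at 0 in the cerebellum set to their bound. Meis2, a homeobox factor of striatal neurons, was at 513, 508 and 545 CPM in the striatum against 2.44, 2.62 and 3.64 CPM in the cerebellum. Bcl11b, also known as Ctip2, was at 383, 361 and 333 CPM in the striatum against 1.09, 1.44 and 1.21 CPM in the cerebellum. Six3, Sp9, Isl1 and the 4 Dlx genes held at most 2 counts in the whole cerebellum group. Lhx8 and Nkx2-1, factors of cholinergic and other interneurons from the ventral forebrain, were at 13.2, 13.7 and 13.5 and 4.61, 6.02 and 5.25 CPM against 0. Rarb and Rxrg, retinoid receptors, were 16.0-fold and 318-fold higher in the striatum. Foxp1, a paralog of Foxp2, was 13.4-fold higher. Ebf1, which is known in D1-class neurons, was higher in the cerebellum at 81.4, 99.3 and 104 CPM in the cerebellum against 35.1, 38.8 and 34.6 CPM in the striatum, and so was Zfp521, a zinc finger partner of Ebf factors, at 155, 169 and 170.0 CPM in the cerebellum against 25.6, 29.7 and 23.6 CPM in the striatum.

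**Figure D3:**
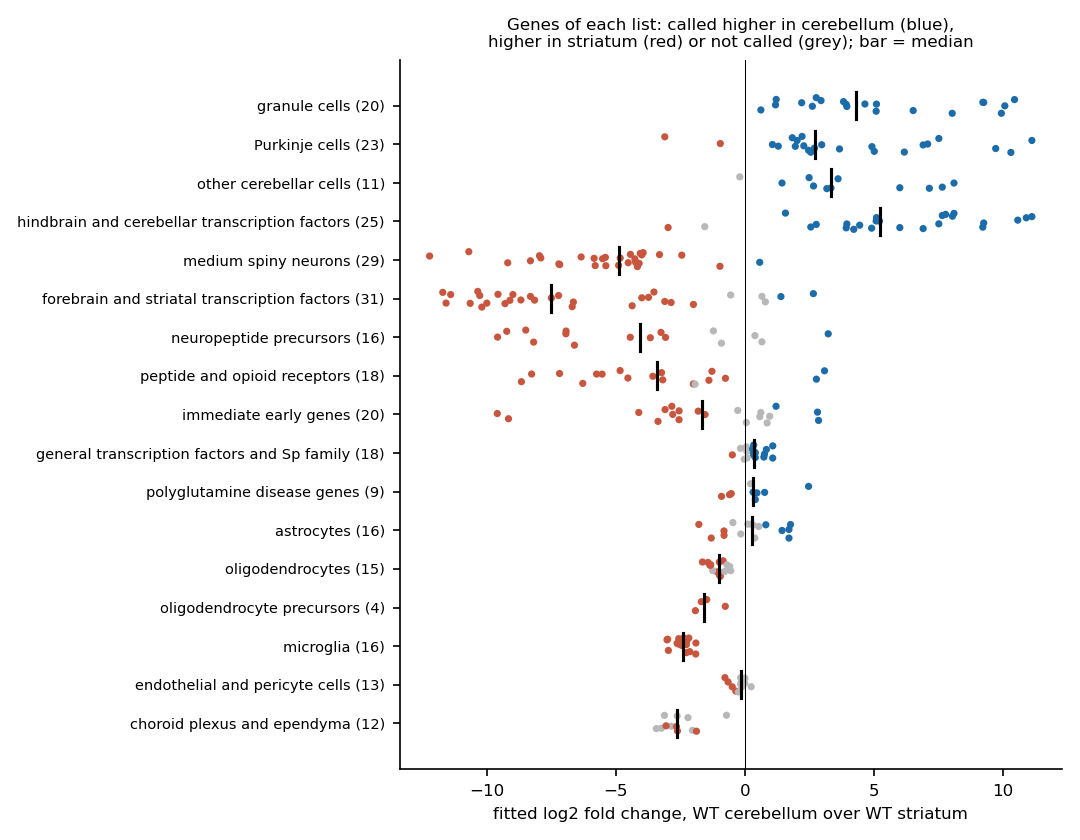
Fitted log2 fold change, WT cerebellum over WT striatum (x axis), of each tested gene of 17 lists (y axis, number of genes in brackets); blue points were called higher in the cerebellum, red points higher in the striatum, grey points were not called, and black bars are medians. All 20 granule cell genes lie to the right of 0 and 28 of 29 medium spiny neuron genes to the left, and all 16 microglial genes lie between -3.02 and -1.90.

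Gene families held members on both sides. In each of 23 families or functional groups examined at least 1 member was called in each direction. In 18 of the 23 the member with the highest level per length of exon was not the same gene. Among these was the list of cAMP and cGMP kinase subunits. Its top striatal member was Ppp1r1b (830 RPKM), a phosphatase inhibitor and not a kinase subunit. With 56.5% of all tested genes called and the lists chosen with earlier results known, nothing particular to families is read from these counts. Over 332 distinct family genes, 109 were higher in the cerebellum, 174 were higher in the striatum and 49 were not called, beside 27.8% and 28.7% of all tested genes.

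Ionotropic glutamate receptors shared some subunits between regions and differed in others. Gria1, an AMPA receptor subunit, was at 455, 430.4 and 439 CPM in the cerebellum against 483, 438 and 539 CPM in the striatum with overlap, whereas Gria4, a subunit with fast kinetics, was at 449, 459 and 458 CPM in the cerebellum against 71.9, 74.0 and 87.6 CPM in the striatum, higher in the cerebellum. Gria2, the subunit that blocks calcium entry, was higher in the striatum at 1052, 1088 and 1128 CPM in the striatum against 529, 624 and 580.0 CPM in the cerebellum. Grin1, the obligatory NMDA receptor subunit, was at 198, 223 and 223 CPM in the cerebellum against 215, 214 and 220.0 CPM in the striatum with overlap (log2 fold change -0.01 ± 0.11 SE, adjusted p = 0.94). Grin2b, a subunit of forebrain receptors, was 24.4-fold higher in the striatum at 175, 201 and 125 CPM in the striatum against 5.85, 6.42 and 8.33 CPM in the cerebellum. Grin2c, the granule cell subunit, was 6.09-fold higher in the cerebellum at 175, 240.0 and 222 CPM in the cerebellum against 40.2, 33.7 and 30.4 CPM in the striatum. Grid1, a delta receptor, was 3.499-fold higher in the striatum. Of the kainate receptors, Grik1 was 6.06-fold higher in the cerebellum and Grik5 4.40-fold higher in the striatum.

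Of 7 metabotropic glutamate receptors, 3 were called in each direction. Grm5, a group I receptor, was at 4.82, 3.93 and 3.32 CPM in the cerebellum against 174, 188 and 186 CPM in the striatum, 45.0-fold higher in the striatum. In group II, Grm2 was 10.1-fold higher in the cerebellum and Grm3, mostly glial, 3.28-fold higher in the striatum. Grm4, a presynaptic receptor of granule cell axons, was 4.57-fold higher in the cerebellum and Grm7, of the same group, 3.25-fold higher in the striatum.

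All 14 tested GABA-A receptor subunits were called, 5 higher in the cerebellum and 9 higher in the striatum. Besides Gabra6, the cerebellum had more Gabrb2, a beta subunit, at 174, 184 and 187 CPM in the cerebellum against 55.0, 55.0 and 61.8 CPM in the striatum. In the striatum Gabra4 was at 388, 399.5 and 365 CPM in the striatum against 67.7, 56.9 and 56.2 CPM in the cerebellum and Gabrg3 at 88.5, 88.6 and 89.9 CPM in the striatum against 2.76, 2.88 and 2.91 CPM in the cerebellum. Gabra5 was 59.5-fold higher. Per length, Gabra6 was the most abundant subunit of the cerebellum at 504 RPKM, and Gabrd was the most abundant of the striatum at 85.4 RPKM although its own level was higher in the cerebellum (130.5 RPKM). The cerebellins bridge the synaptic cleft. Cbln1 and Cbln3 were higher in the cerebellum, and Cbln4 was 8.98-fold higher in the striatum, at 6.01, 2.60 and 5.79 CPM in the striatum against 0.835, 0.393 and 0.324 CPM in the cerebellum. Cbln2 was at 3.07, 1.56 and 9.81 CPM, highest in striatum library 3, against 3 counts in the cerebellum group.

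**Figure D4:**
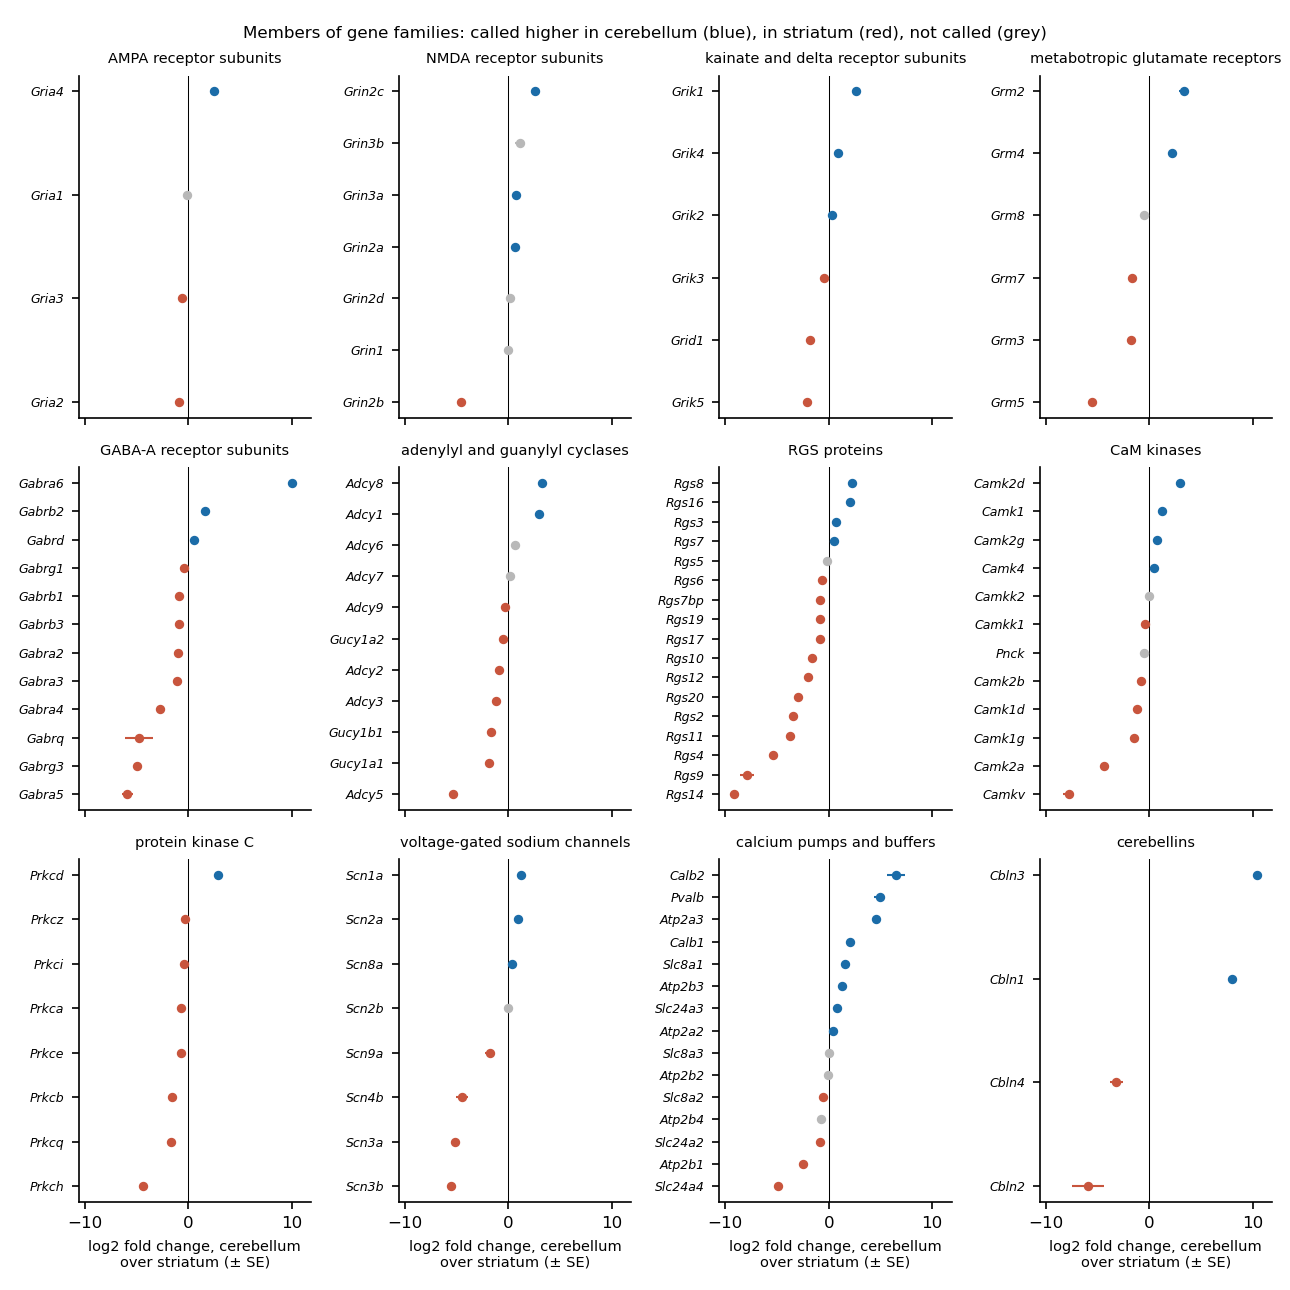
Fitted log2 fold change with its SE, WT cerebellum over WT striatum (x axis), of tested members (y axis) of 12 gene families, blue where called higher in the cerebellum, red where called higher in the striatum and grey where not called. Every panel holds members on both sides of 0, such as Grin2c (2.61) and Grin2b (-4.61), or Cbln3 (10.44) and Cbln2 (-5.94).

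Second messenger enzymes also had members on both sides. Adcy1 and Adcy8, adenylyl cyclases that calcium activates, were higher in the cerebellum, with Adcy1 at 493, 652 and 616 CPM in the cerebellum against 82.7, 65.8 and 75.6 CPM in the striatum, while Adcy5 was the leading cyclase of the striatum at 152 RPKM against 3.63 RPKM in the cerebellum. The subunits of soluble guanylyl cyclase, Gucy1a1 and Gucy1b1, were 3.79-fold and 3.26-fold higher in the striatum. Among 18 tested phosphodiesterases, 7 were higher in the cerebellum and 9 in the striatum; Pde2a was not analysed here. Pde1b, which calmodulin activates, was at 1524, 1755 and 1648 CPM in the striatum against 36.6, 28.8 and 22.5 CPM in the cerebellum. Pde10a, the enzyme of medium spiny neurons that degrades both cyclic nucleotides, was at 1087, 1113 and 857 CPM in the striatum against 83.0, 55.8 and 59.0 CPM in the cerebellum. The cGMP enzymes Pde5a and Pde9a were higher in the cerebellum, at 34.2, 36.4 and 34.4 CPM in the cerebellum against 5.01, 3.27 and 2.70 CPM in the striatum and at 91.8, 119 and 111 CPM in the cerebellum against 24.2, 13.1 and 29.5 CPM in the striatum. The phosphatase inhibitors that cyclic nucleotide kinases act on were opposed, with Ppp1r17 1259-fold higher in the cerebellum and Ppp1r1b 18.0-fold higher in the striatum. Prkar2b, a regulatory subunit of protein kinase A, was 13.3-fold higher in the striatum, and the regulatory subunit Prkar1a was at 1026, 862 and 896 CPM in the cerebellum against 873, 898 and 996 CPM in the striatum with overlap.

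G protein regulators leaned to the striatum, with 12 of 17 RGS genes higher there and 4 higher in the cerebellum. Rgs14 was 559.6-fold higher in the striatum at 155, 131 and 156 CPM in the striatum against 0.386, 0.0655 and 0.324 CPM in the cerebellum, and Rgs4 42.6-fold higher at 1420.3, 1577 and 1374 CPM in the striatum against 40.0, 33.2 and 29.4 CPM in the cerebellum. Rgs8, the Purkinje cell member, was at 953, 952 and 936 CPM in the cerebellum against 207, 216 and 193 CPM in the striatum. Of 26 G protein subunits, 12 were higher in the striatum, 4 were higher in the cerebellum and 10 were not called. Gng13 was the cerebellar counterpart of Gng7, at 59.6, 87.3 and 76.4 CPM in the cerebellum against 6.68, 6.99 and 7.42 CPM in the striatum. Gnai3, Gna13 and Gnb1 overlapped between the regions. Gnas stood at only 8.16, 8.91 and 8.01 CPM in the cerebellum against 7.41, 6.02 and 8.88 CPM in the striatum, and its level is uncertain because several transcripts overlap at its locus and the counting rule for shared reads was not stated.

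Of 25 genes of IP3 signalling, 14 were higher in the cerebellum, 6 were higher in the striatum and 5 were not called, beside 27.8% and 28.7% of all tested genes. Inpp5a, the 5-phosphatase that ends the IP3 signal and the gene the study follows, lies on chr7:139389109-139579652 of GRCm38 on the plus strand and was at 485, 478 and 465 CPM in the cerebellum and 92.7, 104 and 97.8 CPM in the striatum (log2 fold change 2.28 ± 0.12 SE, adjusted p = 1.1e-10). Per length it was the most abundant gene of the family in the cerebellum at 84.3 RPKM against 17.4 RPKM in the striatum. Its paralogs Inpp5b, Inpp5e, Inpp5j and Inpp5k were also higher in the cerebellum, by 2.27-fold, 2.38-fold, 1.97-fold and 1.69-fold. Inpp5f overlapped at 189, 96.8 and 190.3 CPM in the cerebellum against 174, 194 and 222 CPM in the striatum. Inpp5d, known from microglia and blood cells, was 5.48-fold higher in the striatum. Plcb4, the phospholipase that makes IP3 in Purkinje cells, was at 515, 480.1 and 464 CPM in the cerebellum against 35.2, 45.1 and 35.2 CPM in the striatum, and its paralog Plcb1 at 99.3, 74.6 and 76.9 CPM in the cerebellum against 408, 452 and 417 CPM in the striatum. The type 3 ryanodine receptor Ryr3 was 6.95-fold higher in the striatum and Ryr2 2.57-fold higher in the cerebellum. Of 15 calcium pump and buffer genes, 8 were higher in the cerebellum, 4 were higher in the striatum and 3 were not called. Atp2a3, a calcium pump of the endoplasmic reticulum, was at 263, 276 and 249.5 CPM in the cerebellum against 10.7, 11.4 and 11.6 CPM in the striatum. Pvalb, parvalbumin, was at 394, 483 and 450.2 CPM in the cerebellum against 16.4, 15.6 and 11.8 CPM in the striatum. Atp2b1, a calcium pump of the plasma membrane, was higher in the striatum at 1380.3, 1388 and 1250.2 CPM in the striatum against 258, 230.1 and 235 CPM in the cerebellum.

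Calcium-dependent kinases divided as well. Camk2a, the alpha subunit of CaM kinase II, was at 869.8, 805 and 746 CPM in the striatum against 42.9, 38.8 and 36.6 CPM, and Camk2d, the delta subunit, at 44.2, 38.2 and 73.3 CPM in the striatum against 408, 400.3 and 414 CPM in the cerebellum, so the 2 subunits differed in opposite directions by 20.5-fold and 7.86-fold. Camkv, a kinase-like protein of vesicles without kinase activity, was 221-fold higher in the striatum. All 9 protein kinase C genes were called, 2 higher in the cerebellum, Prkcd among them, and 7 higher in the striatum. Prkcb was at 426, 504 and 505 CPM in the cerebellum against 1513, 1465 and 1349 CPM in the striatum.

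Ion channel families divided too. Scn4b, the sodium channel beta subunit of medium spiny neurons, was at 651, 341 and 993 CPM in the striatum against 38.2, 24.1 and 23.5 CPM in the cerebellum. Scn3a, the sodium channel alpha subunit of young neurons, was 36.4-fold higher in the striatum, and the alpha subunits Scn1a, Scn2a and Scn8a were 2.34-fold, 1.91-fold and 1.23-fold higher in the cerebellum, with the call of Scn8a lost without striatum library 2 (adjusted p = 0.0544). Of T-type calcium channels, Cacna1g was 18.5-fold higher in the cerebellum and Cacna1h 34.0-fold higher in the striatum. Of 40 potassium channel genes, 20 were higher in the cerebellum, 17 were higher in the striatum and 3 were not called. Kcnc1, a channel of fast firing, was at 306, 389 and 343 CPM in the cerebellum against 59.0, 45.9 and 59.5 CPM in the striatum. Kcnk3, a leak channel of granule cells, was at 162, 174 and 168 CPM in the cerebellum against 8.75, 10.0 and 13.4 CPM in the striatum. In the striatum Kcnj4, an inward rectifier, was at 98.9, 90.7 and 90.4 CPM in the striatum against 0.386, 0.262 and 0.324 CPM in the cerebellum. Kcnip2, a partner of A-type channels, was at 371, 329 and 336 CPM in the striatum against 5.14, 2.29 and 1.86 CPM in the cerebellum and Kcnq5, a channel of the M current, at 65.3, 68.4 and 79.3 CPM in the striatum against 0.386, 0.590 and 0.647 CPM in the cerebellum. The G protein-gated channels Kcnj3, Kcnj6 and Kcnj9 were all higher in the cerebellum, by 5.87-fold, 9.96-fold and 4.60-fold.

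Of 9 genes mutated by polyglutamine expansions, 5 were higher in the cerebellum, 3 were higher in the striatum and 1 was not called. Tbp, the gene mutated in SCA17 and a part of the basal transcription machinery, was at 60.9, 52.5 and 62.0 CPM in the cerebellum and 39.5, 49.6 and 44.0 CPM in the striatum, without overlap, a 1.32-fold difference (log2 fold change 0.40 ± 0.10 SE, adjusted p = 0.004). Cacna1a, the P/Q-type calcium channel mutated in SCA6, had the largest difference of the 9 genes, at 136, 168 and 170.2 CPM in the cerebellum against 31.3, 27.1 and 27.7 CPM in the striatum. Htt, Atn1 and Atxn2 were 1.69-fold, 1.38-fold and 1.24-fold higher in the cerebellum, Atxn1 and Atxn3 were 1.88-fold and 1.45-fold higher in the striatum, and Atxn7 was at 25.6, 21.8 and 17.9 CPM in the cerebellum against 18.1, 19.4 and 18.9 CPM in the striatum. Of 18 tested general transcription factors and Sp genes, 12 were higher in the cerebellum, none of them 4-fold, 1 was higher in the striatum and 5 were not called, with a median log2 fold change of 0.33. Sp1, the GC-box factor, was at 15.4, 17.4 and 21.2 CPM in the cerebellum against 11.8, 9.59 and 8.96 CPM in the striatum, and its neuronal paralog Sp4 at 38.0, 35.9 and 38.1 CPM in the cerebellum against 18.1, 16.0 and 19.2 CPM in the striatum. Polr2a, the largest subunit of RNA polymerase II, was 1.66-fold higher in the cerebellum. Taf10 was the striatal call, at 50.02, 47.0 and 43.3 CPM in the striatum against 34.96, 33.3 and 31.4 CPM in the cerebellum. Rbfox3, which encodes the neuronal label NeuN, was 1.45-fold higher in the cerebellum, at 270.1, 389 and 356 CPM in the cerebellum against 220.1, 224 and 254 CPM in the striatum, the same direction as the general factors, and its part in their difference was not tested.

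Immediate early genes, which neuronal activity induces within minutes, were mostly higher in the striatum, with 11 of 20 higher there, 3 higher in the cerebellum and 6 not called. Egr3 was at 22.2, 27.3 and 23.9 CPM against 1 count in the cerebellum group. Arc, a synaptic capsid-like protein, was at 122, 375 and 446 CPM in the striatum against 24.7, 34.1 and 32.3 CPM in the cerebellum. Egr2 was at 9.35, 63.5 and 61.3 CPM against 3 counts. Both were lowest in striatum library 1, as were Junb, Npas4 and Fos. Fos itself overlapped at 46.6, 94.7 and 105 CPM in the cerebellum against 6.34, 60.0 and 95.03 CPM in the striatum (adjusted p = 0.59), Ier2 was higher in the cerebellum at 26.7, 45.2 and 43.6 CPM in the cerebellum against 4.14, 5.13 and 6.80 CPM in the striatum. Bdnf, a neurotrophin that cortical axons carry to the striatum, was at 30.9, 20.6 and 22.6 CPM in the cerebellum against 1.07, 0.446 and 9.27 CPM in the striatum.

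All 16 microglial genes were higher in the striatum, by a median log2 fold change of -2.40, 14 of them at least 4-fold. P2ry12, a purine receptor of microglia at rest, was at 69.3, 63.0 and 69.9 CPM in the striatum against 11.5, 12.9 and 14.4 CPM in the cerebellum. Cx3cr1, the fractalkine receptor, was at 92.0, 68.2 and 67.1 CPM in the striatum against 12.4, 14.6 and 11.4 CPM in the cerebellum. C1qa, a complement protein, was at 38.9, 34.1 and 35.1 CPM in the striatum against 7.13, 7.21 and 8.01 CPM in the cerebellum. The summed level of the list was 205 to 214 CPM in the cerebellum libraries and 952 to 1070 CPM in the striatum libraries. Of 15 oligodendrocyte genes, 10 were higher in the striatum and 5 were not called. For all 15 the striatum libraries lay above the cerebellum libraries, beside 63.9% of all tested genes without overlap in either direction. Olig1, a factor of the lineage, was at 183, 157 and 145 CPM in the striatum against 64.1, 63.7 and 61.2 CPM in the cerebellum. All 4 genes of oligodendrocyte precursors were higher in the striatum, with Pdgfra, a growth factor receptor, at 38.3, 35.5 and 32.1 CPM in the striatum against 13.2, 12.1 and 12.5 CPM in the cerebellum.

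Of 16 astrocyte genes, 5 were higher in the cerebellum, 4 were higher in the striatum and 7 were not called, shares near the 27.8% and 28.7% of all tested genes. Slc1a3, which encodes GLAST and is rich in Bergmann glia, was higher in the cerebellum at 2013, 2151 and 2269 CPM in the cerebellum against 815, 767 and 803 CPM in the striatum. Slc1a2, which encodes GLT-1, was higher in the striatum at 724, 695 and 606 CPM in the striatum against 224, 176 and 185 CPM in the cerebellum. Aqp4, the water channel of astrocyte endfeet, was 3.39-fold higher in the cerebellum. Gfap, used in the study as a sign of astrocyte reactivity, was at 249, 236 and 253 CPM in the cerebellum against 234, 190.0 and 143 CPM in the striatum (adjusted p = 0.29), and Aldh1l1 was at 91.6, 90.0 and 92.5 CPM in the cerebellum against 80.1, 86.2 and 66.7 CPM in the striatum, so neither was called. The median log2 fold change of endothelial and pericyte genes was -0.17, with 4 of 13 higher in the striatum and 9 not called, a share near the 28.7% of all tested genes. Their count fell to 1 or 2 without cerebellum library 1, cerebellum library 3 or striatum library 1, in fits of the 6 or 9 WT libraries alone, and with library totals in place of TMM. Of 12 choroid plexus and ependymal genes, 4 were called, all higher in the striatum, with Foxj1, a factor of motile cilia, at 17.1, 17.2 and 7.19 CPM in the striatum against 5.53, 3.08 and 2.59 CPM in the cerebellum. Without striatum library 3, 7 of these 12 genes were called. Without cerebellum library 1, 10 of these 12 genes were called and Ttr became so with a log2 fold change of -9.32 (adjusted p = 0.0124). Cortical excitatory neuron genes were split, with 4 of 10 higher in the cerebellum, 5 higher in the striatum and 1 not called. Their median log2 fold change was -0.13. The striatal levels of the defining cortical markers rested on striatum library 3 in part, and Slc17a7, also a granule cell gene, was higher in the cerebellum. Tbr1 was called with overlap.

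**Figure D5:**
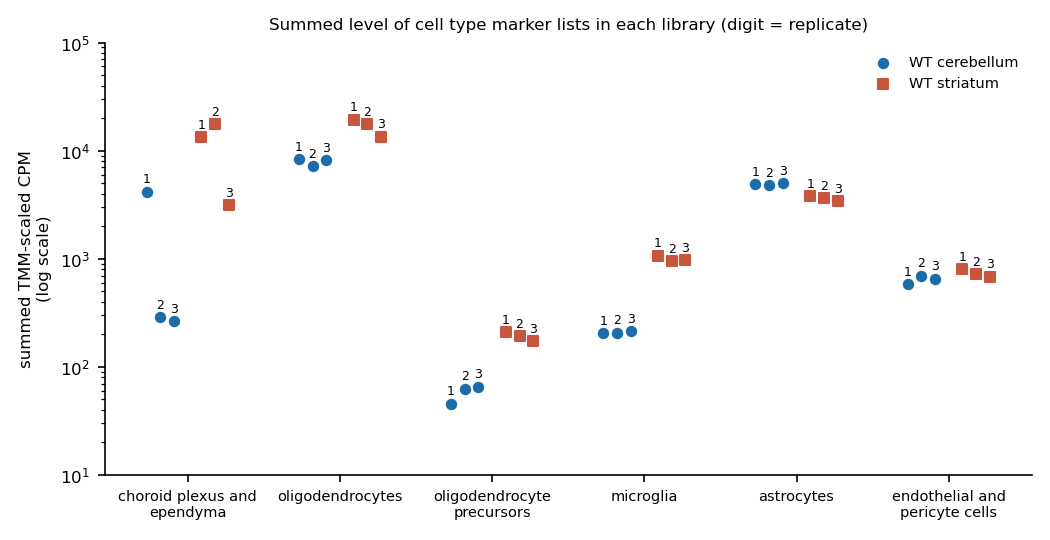
Summed TMM-scaled CPM (y axis, log scale) of 6 marker lists in each library; blue circles are the WT cerebellum, red squares the WT striatum, and the digit is the replicate number. Cerebellum library 1 lies at 4175 CPM for choroid plexus and ependyma against 287 and 264 CPM for libraries 2 and 3, and the microglial sums do not overlap between regions.

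The contrast of regions could be repeated in mice that the WT fit did not use. A separate fit of 4 knock-in cerebellum and 3 knock-in striatum libraries called 4354 genes (25.9%) higher in the cerebellum and 4391 genes (26.1%) higher in the striatum. Of 801 genes at least 4-fold higher in the cerebellum by a fit of the 6 WT libraries alone to the same 16841 genes, 741 (92.5%) were called the same way in the knock-in libraries and 5 had the opposite sign. For the striatum the counts were 1365 of 1537 (88.8%) and 8. With the filter for low counts set on the 6 libraries themselves, the fit held 15577 genes and gave 725 and 1318 genes at least 4-fold higher in the cerebellum and the striatum. The 801 and 1537 genes above were chosen for large values in the WT mice. Their median log2 fold change was 3.03 in the WT and 2.61 in the knock-in libraries for the 801 cerebellar genes. For the 1537 striatal genes it was -3.17 and -2.61. Inpp5a had a log2 fold change of 2.28 ± 0.12 SE for the WT mice in the fit of all 19 libraries. In the separate knock-in fit it was 1.88 ± 0.14 SE. The difference between genotypes, 0.39, was not called (edgeR's quasi-likelihood test, adjusted p = 0.64). That test asks about the regional contrast, and the knock-in effect within the cerebellum was not tested here. The study reported less Inpp5a RNA and protein in the knock-in cerebellum, and by real-time PCR no such fall in the striatum. Over all tested genes, the test of the regional contrast between genotypes called 2 genes (0.0119%), Fam163b and Cd68. There were 1126 genes with an unadjusted p under 0.05.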

How the data were processed

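Total RNA was extracted from dissected tissue with Trizol, and libraries were made with SMART-Seq v4 and Nextera XT kits, which mark neither strand nor molecules. The submitters' processing notes name bcl2fastq 2.17.1.14, STAR 2.5.2b, HTSeq, DESeq2 1.10.1 and the build GRCm38.p3 without giving their roles. The authors deposited a table of raw read counts per gene and a table of the same genes as normalized signal, the counts divided by DESeq2 size factors. The study's methods also name Cufflinks, and its values were not used here.

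From the counts, edgeR 4.0.16 (R 4.3.3) fitted 6 groups of all 19 libraries with TMM scaling and its filter for low counts, by the quasi-likelihood test with Benjamini-Hochberg adjustment over 16841 genes (threshold 0.05), which left 13 residual degrees of freedom (common dispersion as a biological coefficient of variation, 0.191). Each SE is the size of the log2 fold change divided by the square root of the F statistic. Pooling the groups shares 1 estimate of spread. Levels per length used the exon lengths of GENCODE M21 (GRCm38). A fold against a group at 0 was bounded with 3 counts over its 3 libraries, and ratios over 1 to 3 counts carry exact 95% Poisson intervals, which cover counting error only. The labels and the study's methods give 3 to 4 mice per genotype, so the libraries of a region were taken as separate mice, although no label ties a library to a mouse. No pair of replicates agreed within sampling noise (chi-square per degree of freedom from 4.95 to 25.2), and every library was kept as its own replicate.

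The members of the comparison and the gene lists were chosen with earlier results of these data known. Genes were named by these rules: for each direction, the 10 called genes with the largest fold among those without overlap and with at least 10 CPM, predicted genes left out; the 10 with the largest difference in CPM; list members with the largest fold, against the list's name, or defining a cell type; the most abundant member of a family per length; and genes the study names. Other list members in the text were chosen after their values were seen. The script was tested on simulated data. Gpr52 and Pde2a were not analysed here, and some further genes counted in the lists are not reported here by name. Alternatives used limma 3.58.1 on log2 of the normalized signal plus 1, DESeq2 1.42.0, other scalings and filters, other libraries in the fit, and each library left out.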

Additional observations from a re-analysis of the deposited data

Results flagged for a closer look

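Among 16841 genes tested for a regional contrast that differed between WT and knock-in mice, 2 passed. Cd68, a lysosomal protein of microglia and macrophages, was at 2.83, 4.00 and 4.37 CPM in the WT cerebellum and at 29.7, 32.1 and 29.0 CPM in the WT striatum, and its log2 fold change was -3.02 in the WT mice and -1.64 in the knock-in fit. The difference of the contrasts was -1.38 (edgeR's quasi-likelihood test, adjusted p = 0.0257). Fam163b, a membrane protein of little known function, was at 12.9, 10.0 and 11.1 CPM in the WT cerebellum and at 136, 140.0 and 129 CPM in the WT striatum. Its log2 fold change was -3.58 in the WT mice and -0.97 in the knock-in fit, and the difference was -2.60 (adjusted p = 8.4e-05). The number of such genes ranged from 1 to 6 when 1 WT library was left out, so it is not stable, and the cause was not tested.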

How the results depend on the processing

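No called gene of the lists changed direction under any alternative run. The numbers of genes higher in the cerebellum and in the striatum stayed within 3794 to 5584 and 3909 to 5020. A filter of at least 10 counts in each of the 6 WT libraries, which removes genes near 0 in one region, left 390 and 610 genes at least 4-fold higher in the cerebellum and the striatum, and a 2-fold limit gave 1995 and 2680. With 1 library left out, these 4-fold counts were 795 to 877 and 1437 to 1655, the called genes 4072 to 4349 and 4237 to 4683, and the genes whose contrast differed between genotypes 1 to 6, the 6 arising without WT cerebellum library 1. With cerebellum library 1 and striatum library 3 both left out, an alternative chosen after seeing the data, 4096 and 4291 genes were called, 903 and 1629 of them at least 4-fold, and choroid plexus and ependymal calls went from 4 to 12. Library totals without TMM moved the median log2 fold change to 0.10 and the share of calls higher in the cerebellum from 49.2% to 57.3%. Deviations of same-numbered libraries correlated at 0.04, -0.10 and 0.14 over genes, and those of different-numbered libraries at -0.21 to 0.21. These values cannot decide whether the numbers pair the samples. The sex-linked genes showed different mice for numbers 1 and 3 only, and the labels leave number 2 unsettled. A replicate block by number within genotype gave 4638 and 4798 called genes, 819 and 1559 of them at least 4-fold. It gave 9 choroid plexus and ependymal calls. For numbers 1 and 3 this block joined WT cerebellum and striatum libraries of different mice, so it is not a correction for mouse. Genes with few counts are limited by depth, and 3 libraries per region limit all calls.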
